A study of Mus musculus with 18 samples.

Results

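The 8 genes described here control the cellular level of polyamines: Odc1, Amd1, Srm and Sms, which encode the enzymes of synthesis, Oaz1 and Oaz2, which encode antizymes, Azin1, which encodes an antizyme inhibitor, and Sat1, which encodes an enzyme of breakdown. They were taken from a count table of polysome fractions by matching gene identifiers to these symbols, by a rule that reads no measured value, and were 8 of the 51467 genes in the table. The cells were mouse embryonic stem cells (ESCs) in serum medium with LIF and 2i, a pair of kinase inhibitors that maintain self-renewal. A wild-type (WT) group and a DGCR8 KO group were compared to see how the loss of microRNAs alters translation, since DGCR8 is needed to process microRNA precursors. Each genotype was represented by 1 cell line, an existing knockout line in the case of DGCR8 KO, so that genotype and line cannot be told apart. All cells received cycloheximide, which holds ribosomes on messages, at 100 ug/ml for 2 min. For each genotype, 3 sucrose gradients were each divided into a monosome fraction, a low polysome fraction with 2 to 4 ribosomes per message and a high polysome fraction with 4 or more. The 18 libraries of 3′ end reads therefore fell into 6 groups of 3. Nothing in the labels says that the gradients came from separate cultures, so p-values measure the spread between these samples, which may be technical.

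Polyamines are small positively charged molecules that bind RNA and are needed for growth, and their level is held within limits by feedback that acts largely on translation. Ornithine decarboxylase (ODC1) makes putrescine. S-adenosylmethionine decarboxylase (AMD1) supplies the aminopropyl groups that spermidine synthase (SRM) and spermine synthase (SMS) add to it. Antizymes bind ODC1 and deliver it to the proteasome, and reading through their messages requires the ribosome to shift frame, which high polyamine levels favour. Antizyme inhibitor (AZIN1) resembles ODC1 without its activity and binds antizymes in its place. Spermidine/spermine acetyltransferase (SAT1) marks polyamines for breakdown or export.

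To show what in these messages ribosomes meet, the sequences below were read from the reference transcripts. The mouse Amd1 transcript Amd1-201 carries in its 5′ UTR an upstream open reading frame of 6 codons before its stop, at positions 12 to 32, which is known to make translation of Amd1 respond to polyamines. It is printed in capitals with 4 bases on each side. In Oaz1 and Oaz2, the annotated coding sequence skips a single T, on chromosome 10 at position 80828295 and on chromosome 9 at position 65686272 (GRCm38, plus strand), which is where the reading frame shifts. The first frame has 68 codons before that base in Oaz1 and 32 in Oaz2, with 159 and 157 codons after it. The windows come from annotated transcripts that keep that base, at positions 68 to 97 in Oaz1 and 307 to 336 in Oaz2. Capitals mark the codon before the shift and the stop codon of the first frame, and 28 of the 30 bases printed are identical between both genes. For miR-294-3p, a member of the ESCC family of microRNAs that ESCs express and DGCR8 KO cells cannot make, capitals mark the seed.
Amd1 upstream reading frame: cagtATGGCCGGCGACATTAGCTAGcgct
Oaz1 frameshift site: ggcctcggtggtgcTCCTGAtgtccctcac
Oaz2 frameshift site: ggcctctgtggtgcTCCTGAtgcccctcac
miR-294-3p: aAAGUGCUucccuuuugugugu

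Library totals ranged from 1151649 to 4984833 counts, with the monosome libraries the smallest in both genotypes (1151649 to 1578231 in WT and 1707918 to 2436888 in KO). Dgcr8 kept 38 to 183 reads in the KO libraries, and its level was 27.7 ± 1.76 CPM (SD, n = 3) in WT and 15.4 ± 7.17 CPM in KO high polysomes. It was lower in KO in all 3 fractions (log2 changes of -0.56, -0.45 and -1.01 from monosomes to high polysomes, limma adjusted p between 2.76e-04 and 0.0223). These reads come from the 3′ end, so a deletion elsewhere in the gene is not seen in them. All 7 ESC markers were detected in all 18 libraries, with summed levels of 2130 to 3570 CPM in WT and 2120 to 2960 CPM in KO. The 5 fibroblast markers summed to 7.01 to 12.7 CPM in WT and 1.94 to 20.9 CPM in KO, and the 3 primitive endoderm markers to at most 5.07 CPM. Of the 2 epiblast-like markers, Otx2 was present throughout at 29.4 to 77.6 CPM, whereas Fgf5 had at most 1 read per library. The part of other cell types in the results was not tested. CPM are shares of the RNA in a fraction, so that less of a message per cell and more of all other messages cannot be told apart.

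All 8 genes were lower in the high polysomes of DGCR8 KO cells than of WT cells, by 1.74-fold (Sms) to 3.68-fold (Sat1). The counts differed by fraction. In monosomes 3 of 8 were lower, in low polysomes 6 of 8 and in high polysomes all 8, and none was higher (limma, adjusted p under 0.05 over 12851 genes). Without WT replicate 3 or KO replicate 3, 7 of 8 passed in high polysomes, Amd1 being lost (log2 change of -1.34 and -0.44). Many genes differed between the lines, since 37.3% of all genes tested passed for monosomes, 52.3% for low polysomes and 60.7% for high polysomes. Lower ones alone made up 19.9%, 26.2% and 31.6% in that order. Total-count scaling moves these shares to 15.9%, 27.2% and 39.9%, and the median of all genes by 0.10, -0.03 and -0.22 on the log2 scale. The median log2 change over the 8 genes was -0.24, -0.95 and -1.37 in the same order, beside -0.05, 0.00 and -0.08 over all genes. In high polysomes the median was -1.13 for genes in the decile of shortest coding sequences, which holds Sat1, and other deciles are given below. With a log2 change over 1 also required, 0, 4 and 6 of the 8 genes passed as lower, beside 9.63%, 13.6% and 17.9% of all genes.

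**Figure D1:**
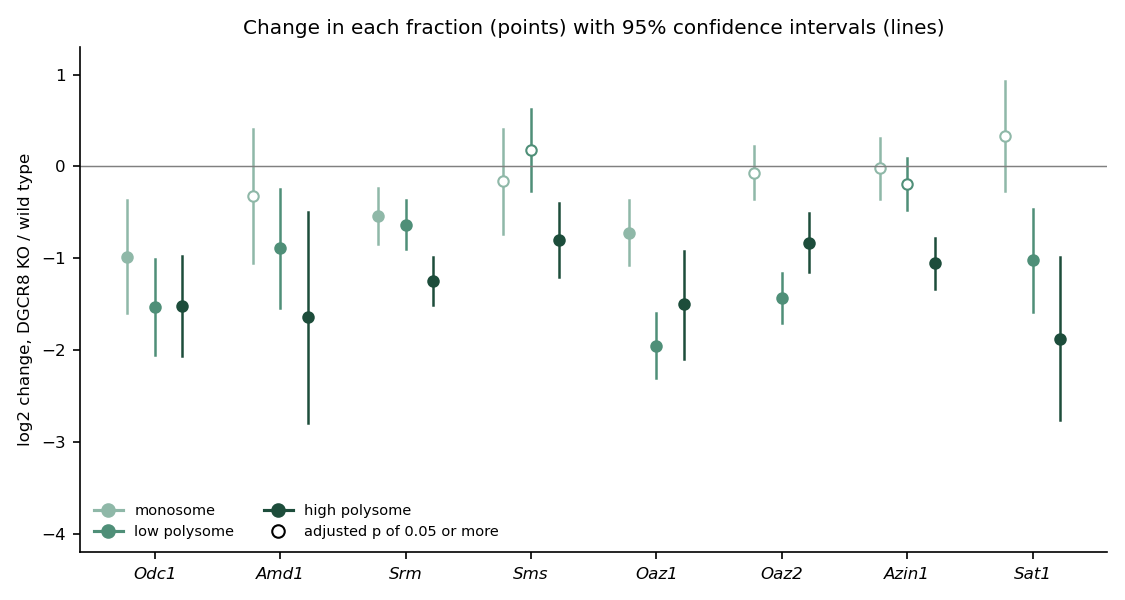
Log2 change of DGCR8 KO against wild type for each of the 8 genes (x axis) in monosome, low polysome and high polysome fractions, from the limma fit, with 95% confidence intervals as lines and open points for an adjusted p of 0.05 or more. The 8 high polysome points lie between -0.80 and -1.88, while the 3 monosome points that passed the test lie between -0.54 and -0.98.

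Against this, the translation level, the ratio of high polysome to monosome reads, fell in DGCR8 KO cells for 4 of 8 genes: Srm, Oaz2, Azin1 and Sat1 (28.2% of all genes tested passed, 15.2% as lower, or 24.7% as lower with total-count scaling). Both fractions are scaled to their own libraries, so a log2 ratio of 0 marks about the typical gene (medians of -0.01 in WT and -0.07 in KO over all genes) and not an even spread over the gradient. Odc1, Amd1, Sms and Oaz1 had log2 changes of -0.53, -1.32, -0.64 and -0.78 that did not pass. The median over the 8 genes was -0.77, beside 0.01 over all genes. Azin1 and Sat1 also passed a log2 change of 1, as did 8.81% of all genes on the lower side. Leaving out 1 gradient at a time gave 3 to 5 genes, and Srm was the one lost, without WT replicate 1 (log2 change of -0.59, adjusted p = 0.0585).

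**Figure D2:**
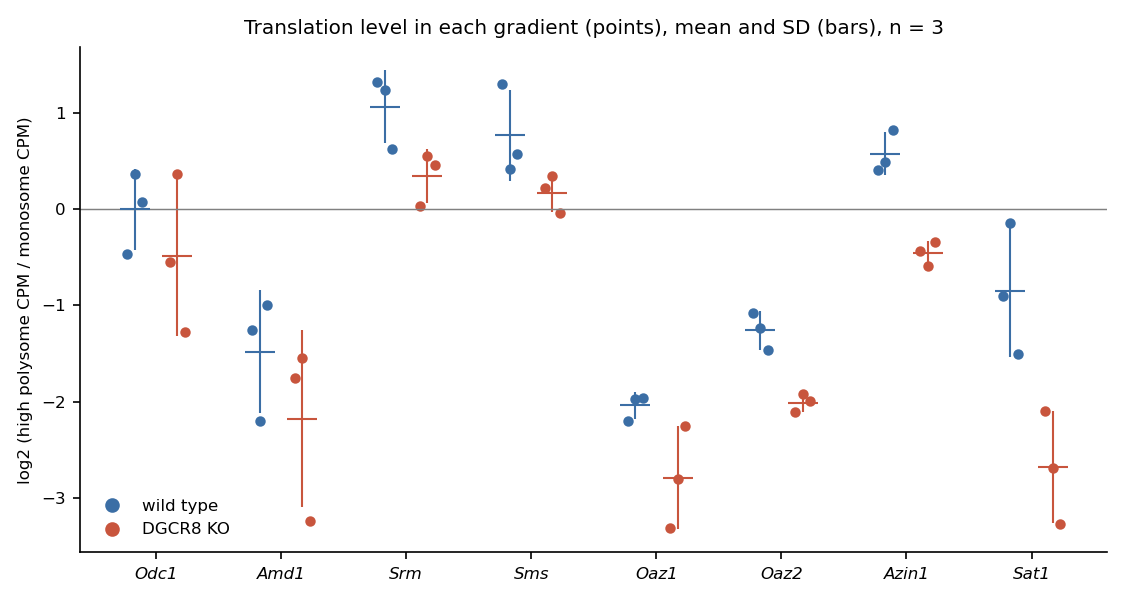
Log2 ratio of high polysome to monosome CPM in each gradient (points), with the mean and SD of 3 gradients, for wild-type and DGCR8 KO cells. All 3 Azin1 gradients lie above 0 in wild type (0.41 to 0.83) and below 0 in DGCR8 KO (-0.59 to -0.34), while the Odc1 points of both genotypes overlap. The place of 0 is set by the scaling of libraries.

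Odc1 (ENSMUSG00000011179, chromosome 12, 17544794 to 17551505, plus strand, GRCm38), the first enzyme of the pathway, was lower in KO cells in all 3 fractions. In monosomes the WT libraries gave 52.2, 34.2 and 31.8 CPM and the KO libraries 21.7, 17.1 and 21.2. Low polysomes held 57.5, 28.7 and 59 CPM in WT against 22.1, 11.5 and 15 in KO, and high polysomes 37.8, 44.3 and 33.8 against 14.5, 22.4 and 8.27. The genotypes did not overlap in any fraction. The log2 changes were -0.98 (SE 0.31, adjusted p = 0.0101), -1.53 (SE 0.26, 3.58e-06) and -1.52 (SE 0.27, 7.43e-06). The monosome call rested on WT replicate 1, without which the change was -0.75 (adjusted p = 0.1), and it was lost with no filter on low counts. The log2 translation level was -0.03 (SE 0.27) in WT, percentile 49.2 of all genes, and stood at -0.57 (SE 0.31, adjusted p = 0.105) in KO, a value that passed without KO replicate 2 (-1.02, adjusted p = 0.0174) and with total counts. The change in translation level, -0.53, had a 95% confidence interval from -1.36 to 0.29. In the last 500 bases of the transcript, 17.7% of 50-base words also occur in 5 other annotated genes, so some Odc1 reads could have been dropped as not unique.

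Amd1 (ENSMUSG00000075232, chromosome 10, 40287458 to 40302186, minus strand), the gene with the upstream reading frame printed above, had few reads. In the high polysome libraries there were 9, 7 and 17 reads in WT and 7, 10 and 1 in KO, or 3.51, 2.52 and 5.41 CPM against 2.31, 3.11 and 0.23. One KO library thus held a single read. Of the other KO values, 3.11 CPM fell within the WT range and 2.31 CPM lay just below it. The low polysomes gave 10.2, 10.3 and 9.93 CPM in WT and 6.15, 4.17 and 6.04 in KO, without overlap, and the monosomes 9.38, 14.2 and 11.5 against 9.45, 10.5 and 8.23. The log2 change was -1.64 (SE 0.57, adjusted p = 0.0116) in high polysomes. It shrank to -0.44 (adjusted p = 0.452) without KO replicate 3 and to -1.34 (adjusted p = 0.082) without WT replicate 3. In low polysomes the change was -0.89 (SE 0.32, adjusted p = 0.019), lost without KO replicate 2 (-0.73, adjusted p = 0.0622) and with no filter. Monosomes showed -0.32 (adjusted p = 0.518). Amd1 was below most genes in both genotypes, with log2 translation levels of -1.62 (SE 0.43) in WT and -2.94 (SE 0.52) in KO, at percentiles 12.2 and 4.42 of all genes. The WT value was -1.13 (adjusted p = 0.0788) without WT replicate 2. Of its 50-base end words, 98.7% also occur in Amd2, a near copy that had at most 8 reads in a library, so the counts of both genes are uncertain.

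Srm (ENSMUSG00000006442, chromosome 4, 148591503 to 148594993, plus strand), which makes spermidine, had a higher CPM in high polysomes than in monosomes in WT. The WT libraries held 111, 104 and 126 CPM in monosomes, 174, 158 and 156 in low polysomes and 278, 247 and 196 in high polysomes. The KO libraries held 82.3, 74.9 and 76.8 CPM, then 117, 102 and 96.4, then 84, 111 and 106. Every KO library lay below every WT library of its fraction, and in KO the low and high polysome ranges overlapped. The log2 change was -0.54 (SE 0.15, adjusted p = 0.00487) for the monosomes, -0.64 (SE 0.13, 7.58e-05) for the low polysomes and -1.25 (SE 0.13, 7.81e-11) for the high polysomes. The translation level was 1.07 (SE 0.14) in WT, percentile 89.8 of all genes, and 0.36 (SE 0.14, adjusted p = 0.0245) in KO, percentile 63.3. The KO value lost its call without KO replicate 2 (0.26, adjusted p = 0.194) or 3 (0.30, adjusted p = 0.15), with total counts and with a filter of 10 CPM. The translation level changed by -0.71 (SE 0.20, adjusted p = 0.00598). None of its end words is shared with another annotated gene.

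Sms (ENSMUSG00000071708, chromosome X, 157443855 to 157492287, minus strand), which makes spermine, passed the test between the lines in high polysomes and in no other fraction. The high polysomes held 32.4, 29.6 and 33.4 CPM in WT and 19.5, 21.4 and 15.2 in KO, without overlap (log2 change of -0.80, SE 0.20, adjusted p = 5.46e-04). In the other fractions the genotypes overlapped, with 12.7, 21.9 and 22.1 CPM against 16.7, 16.7 and 15.7 in monosomes and 11.3, 18.1 and 16.6 against 24, 13.8 and 15.8 in low polysomes. The log2 changes there were -0.16 (adjusted p = 0.689) and 0.18 (adjusted p = 0.523). WT cells had a translation level of 0.79 (SE 0.25, adjusted p = 0.00747), which was 0.50 (adjusted p = 0.152) without WT replicate 1, and KO cells 0.15 (SE 0.23, adjusted p = 0.577). The change, -0.64 (SE 0.34, adjusted p = 0.167), did not pass.

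The antizyme genes ranked eighth (Oaz1) and sixth (Oaz2) of the 8 by translation level in WT cells, and both had their largest log2 change between the lines in the low polysomes. Oaz1 (ENSMUSG00000035242, chromosome 10, 80826656 to 80829290, plus strand) stood at 74.3, 67.1 and 66.3 CPM in WT monosomes and 36.1, 47.8 and 41.9 in KO monosomes. Its low polysome values were 67.7, 80.1 and 72.5 CPM in WT and 14.8, 20.8 and 21.8 in KO, and its high polysome values 15.6, 16.6 and 16.6 against 2.98, 6.21 and 8.27. No KO library reached a WT library in any fraction. The log2 changes were -0.72 (SE 0.18, adjusted p = 0.0012), -1.95 (SE 0.17, 2.03e-12) and -1.50 (SE 0.29, 2.39e-05), the low polysome one at percentile 4.41 of all genes. The translation level was -2.08 (SE 0.20) in WT and -2.87 (SE 0.27) in KO. The KO high polysomes held 9, 20 and 36 reads. Of the 50-base end words, 36.6% also occur in the pseudogene Oaz1-ps, so some Oaz1 reads could have been dropped.

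Oaz2 (ENSMUSG00000040652, chromosome 9, 65668001 to 65690300, plus strand) had its highest CPM in the low polysomes in WT, at 257, 235 and 249, but in KO these held 99.6, 106 and 73. Each fraction is scaled to its own libraries, so CPM do not show which fraction held most of the message. Its monosome levels overlapped, at 170, 146 and 189 CPM in WT and 142, 172 and 164 in KO, and its high polysome levels were 80.3, 62 and 68.2 against 32.4, 45 and 40.7, without overlap. In KO the monosomes thus held the largest CPM of the 3 fractions in every gradient, and in WT the low polysomes did. The log2 change was -1.43 (SE 0.13, adjusted p = 6.69e-12) in low polysomes, -0.83 (SE 0.16, 2.14e-05) in high polysomes and -0.07 (adjusted p = 0.75) in monosomes. The translation level was -1.26 (SE 0.15) in WT and -2.02 (SE 0.15) in KO. Its end words are not shared either.

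The low polysome to monosome ratio passed the test for 3 of the 8 genes, all lower in KO (11.4% of all genes tested passed, 7.49% as lower, or 9.99% with total counts). They were Oaz1 (log2 change of -1.23, SE 0.25, adjusted p = 4.46e-04), Oaz2 (-1.36, SE 0.20, 1.95e-06) and Sat1 (-1.35, SE 0.41, 0.0222), and each passed a log2 change of 1, as did 3.81% of all genes on the lower side. Leaving out a gradient changed neither antizyme call. The Sat1 call was lost without WT replicate 2 (-1.03, adjusted p = 0.151), without KO replicate 1 (-1.02, adjusted p = 0.108) and with no filter. The high polysome to monosome ratio fell by 0.76 on the log2 scale for Oaz2 (SE 0.21, adjusted p = 0.00583). Oaz1 showed -0.78 (SE 0.34, adjusted p = 0.0801), a change that passed without KO replicate 3 (-1.15, adjusted p = 0.0429) and with total counts (-1.11, adjusted p = 0.0105). The high to low polysome ratio, in contrast, passed for 4 of 8 genes (17.8% of all genes, 10.3% lower and 7.52% higher, or 17.5% lower with total counts), with Srm (-0.61), Sms (-0.98) and Azin1 (-0.87) lower and Oaz2 (0.60) higher in KO. Only the Azin1 call held in all 6 fits that left out a gradient. The Srm call was lost without WT replicate 1 or 2 or KO replicate 1, the Sms call without WT replicate 1 or 3 or KO replicate 1 or 3, and the Oaz2 call without each WT replicate and without KO replicate 3. Total counts (0.40, adjusted p = 0.168) and a fit of the libraries compared alone (adjusted p = 0.0543) also ended the Oaz2 call. With WT replicate 1 left out 1 gene passed, and with no filter 2.

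Azin1 (ENSMUSG00000037458, chromosome 15, 38487427 to 38519266, minus strand), whose product frees ODC1 from antizymes, had a translation level above that of most genes in WT and below that of most genes in KO. In the monosomes the genotypes overlapped, at 52.2, 58.7 and 50.4 CPM in WT and 52.3, 54 and 53.3 in KO, as they did in the low polysomes, at 49.4, 56.1 and 61.1 against 51.9, 50.6 and 44.1. In the high polysomes the WT libraries held 69.8, 82.9 and 90.1 CPM and the KO libraries 38.7, 35.7 and 41.8. The difference between the lines was thus seen in the high polysomes (log2 change of -1.05, SE 0.14, adjusted p = 1.84e-08) and not detected in monosomes (-0.02, 95% confidence interval -0.35 to 0.31) or low polysomes (-0.19, -0.47 to 0.09). The translation level was 0.58 (SE 0.15, adjusted p = 0.00175) in WT, percentile 73.5 of all genes, and -0.46 (SE 0.15, adjusted p = 0.00672) in KO, percentile 39.5. The KO value was -0.39 (adjusted p = 0.0615) without KO replicate 2. The change of -1.03 (SE 0.21, adjusted p = 2.76e-04) lay between -1.12 and -0.91 when each gradient was left out in turn, and passed in each case. The Azin1 transcript has 3 upstream ATGs, the last with 1 base between its stop and the start codon, and its end words are not shared.

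Sat1 (ENSMUSG00000025283, chromosome X, 155213132 to 155216449, minus strand), the breakdown enzyme, had the largest change in translation level of the 8, at percentile 0.879 of all genes. Its monosome level overlapped between genotypes, at 17.4, 8.39 and 21.2 CPM in WT and 22.2, 15.9 and 17.2 in KO. Low polysomes held 14.1, 14.2 and 16 CPM in WT and 5.23, 8.65 and 8.14 in KO, and high polysomes 8.97, 7.57 and 7.01 against 4.63, 1.86 and 1.15. Neither polysome fraction showed overlap. The KO high polysome values rest on 14, 6 and 5 reads, and the WT monosome values on 26, 13 and 24. The monosomes changed by 0.33 (adjusted p = 0.404), the low polysomes by -1.02 (SE 0.28, adjusted p = 0.002) and the high polysomes by -1.88 (SE 0.44, 3.1e-04), on the log2 scale. The translation level was -0.86 (SE 0.33, adjusted p = 0.0272) in WT, a call lost without WT replicate 1 (-0.79, adjusted p = 0.14) or 3 (-0.56, adjusted p = 0.287), and -3.07 (SE 0.41, adjusted p = 1.95e-08) in KO. It changed by -2.21 (SE 0.53, adjusted p = 0.00137), or 4.63-fold, and by -2.57 to -1.73 with a gradient left out. Of its end words, 2.44% occur in other genes.

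**Figure D3:**
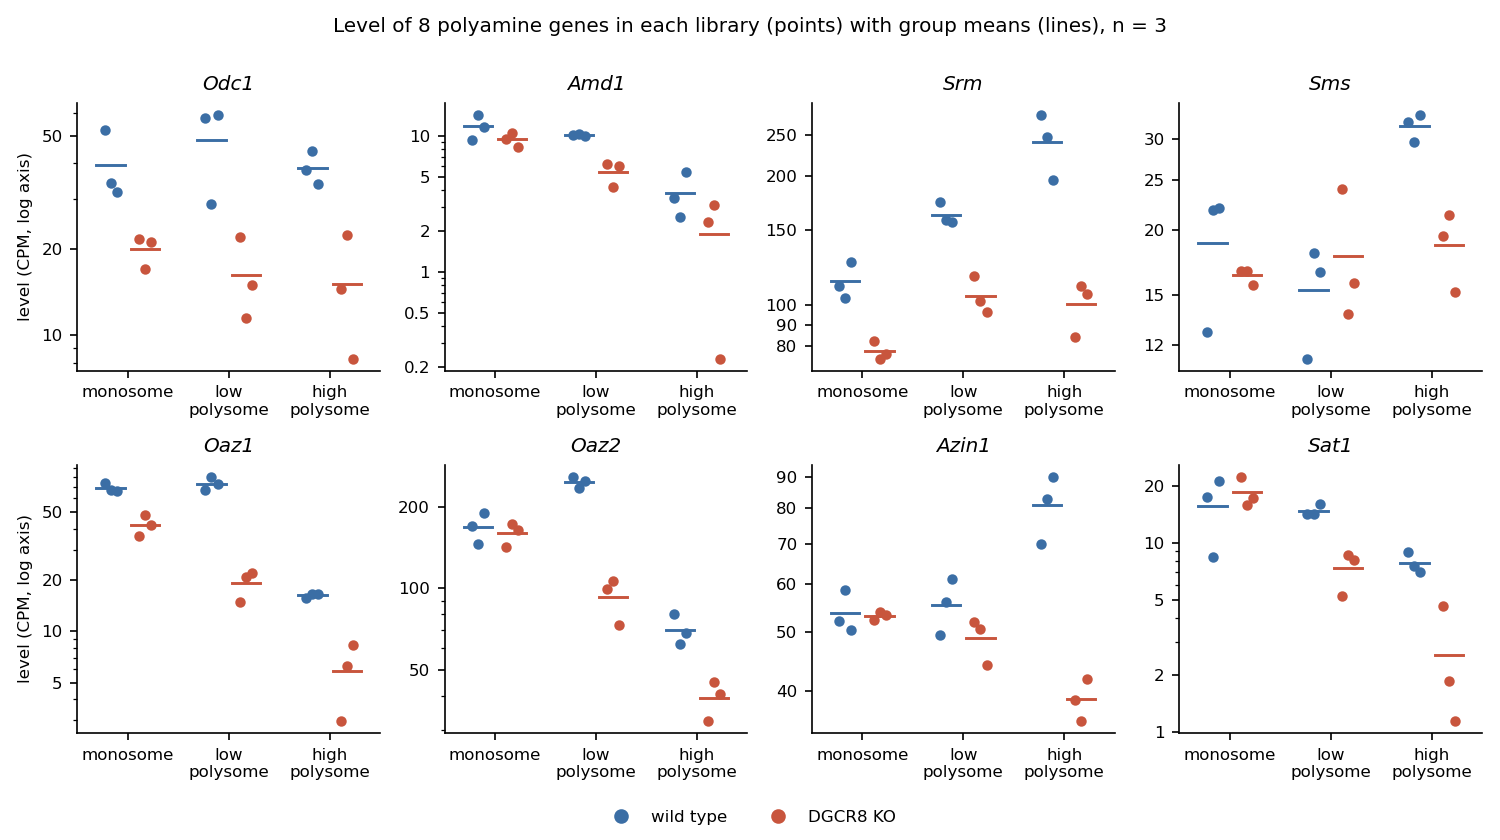
Level in CPM (log axis, scaled separately for each gene) of the 8 genes in every library (points) with the group means (lines) of wild-type and DGCR8 KO cells, by fraction. In the high polysomes all KO libraries lie below all wild-type libraries for every gene but Amd1, whereas in the monosomes this holds for Odc1, Srm and Oaz1.

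Counted over libraries, all 3 KO values lay below all 3 WT values for 3 of 8 genes of the monosome fraction, 6 of 8 of the low and 7 of 8 of the high polysome fraction. The same was true of 25.7%, 28.4% and 33.7% of all genes tested.

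Ordered by translation level in WT, Srm came first (1.07 ± 0.38 over 3 gradients, log2 ratio ± SD), followed by Sms (0.77 ± 0.47), Azin1 (0.58 ± 0.22), Odc1 (-0.00 ± 0.42), Sat1 (-0.85 ± 0.69), Oaz2 (-1.26 ± 0.20), Amd1 (-1.48 ± 0.64) and Oaz1 (-2.04 ± 0.14). The gradients of neighbours in this order overlapped except between Azin1 and Odc1. In KO the first 4 kept these places, with Srm at 0.35 ± 0.28, Sms at 0.17 ± 0.20, Azin1 at -0.45 ± 0.12 and Odc1 at -0.49 ± 0.83. Oaz2 (-2.01 ± 0.10), Amd1 (-2.18 ± 0.92), Sat1 (-2.68 ± 0.58) and Oaz1 (-2.79 ± 0.54) followed. Neighbours overlapped here except Sms with Azin1 and Odc1 with Oaz2. Sat1 moved from the fifth to the seventh place, although it overlapped with both of its neighbours in each genotype. This order uses ratios of CPM with a prior count of 2, and the last places in KO depend on it. By the limma fit these were held by Oaz2 (-2.02), Oaz1 (-2.87), Amd1 (-2.94) and Sat1 (-3.07), so that Sat1 came last. The limma order in WT was the same as above. The translation level differed from 0 for 7 of the 8 genes in WT (54% of all genes tested passed, 28% below 0 and 26% above) and for 6 in KO (67.7%, 35.5% and 32.2%, or 42.2% below 0 with total counts).

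To set the genes against each other without the scaling of libraries, ratios of counts were taken within each library. There were 15 comparisons of KO with WT, and none could reach an exact permutation p below 0.1, the smallest that 3 against 3 allow. The groups did not overlap in 4 of them, each with an adjusted p of 0.375. How often pairs of other genes separate in this way was not counted. The comparisons are not independent, since the ratios share genes. The Azin1 to Oaz1 ratio in low polysomes, where the limma log2 changes were -1.95 for Oaz1 and -0.19 for Azin1, differed most. Its log2 values were -0.45, -0.51 and -0.25 in WT and 1.77, 1.26 and 1.0 in KO, a difference of 1.74. In monosomes this ratio was -0.50, -0.19 and -0.38 against 0.52, 0.17 and 0.34, so that Azin1 reads were fewer than Oaz1 reads in every WT library of both fractions and more in every KO library. These are read counts from transcript ends, and those of Oaz1 may be incomplete. The high polysome values overlapped, with means of 2.26 ± 0.15 in WT and 2.71 ± 0.63 in KO. The other 2 comparisons without overlap were in monosomes, Oaz2 to Oaz1 (1.26 ± 0.20 against 1.91 ± 0.06) and Sat1 to Odc1 (-1.31 ± 0.69 against -0.12 ± 0.16). The ratio of Odc1 to Oaz1, the enzyme to the antizyme, overlapped between the lines in each fraction, with differences of -0.22, 0.40 and 0.07.

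**Figure D4:**
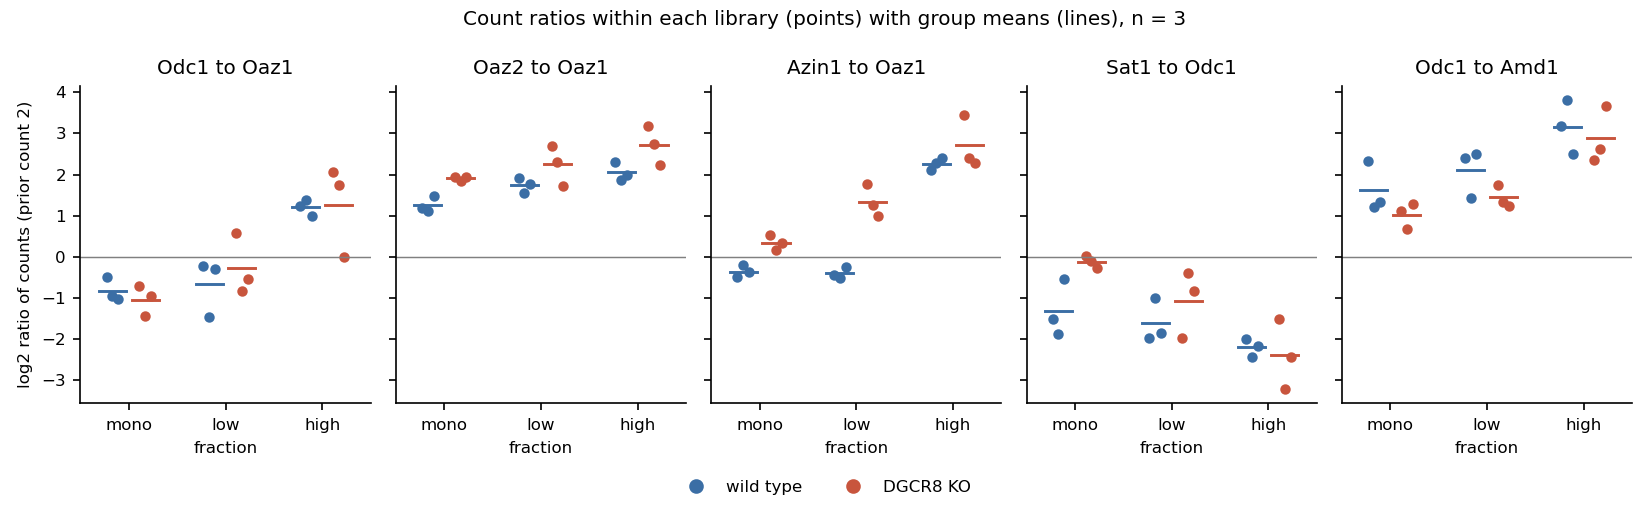
Log2 ratios of counts, with a prior count of 2, within each library (points) and their group means (lines) for 5 pairs of genes in monosome, low and high polysome fractions. The Azin1 to Oaz1 ratio lies below 0 in wild-type monosomes and low polysomes and above 0 in the same fractions of DGCR8 KO cells.

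The coding sequences ran from 513 bases (Sat1) to 1383 bases (Odc1), with Odc1 above and the other 7 below the median of 1362 bases over 11763 coding genes tested. By decile of coding length, the median change in translation level between KO and WT rose from the first to the sixth decile. A trend with length was not tested. The median change was -0.94 in the shortest decile, which holds Sat1, -0.64 in the second, which holds Oaz1 and Oaz2, and -0.34 in the third, which holds Srm. It was -0.15 in the fourth (Amd1 and Sms), -0.03 in the fifth (Azin1) and 0.11 in the sixth (Odc1). For KO against WT in high polysomes, the medians from the first to the sixth decile were -1.13, -0.74, -0.44, -0.18, -0.09 and 0.11. By change in translation level within its decile, Oaz1 stood at percentile 41.9 and Oaz2 at 43.2, near the middle. Azin1 was at 6.71, Sat1 at 2.62, Amd1 at 5.35, Odc1 at 17, Sms at 24.2 and Srm at 27.8. The part of coding length in the changes of single genes was not tested.

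Upstream ATGs were found in 5 of the 8 transcripts: 4 in Sms, 3 in Azin1, 2 each in Odc1 and Sat1 and 1 in Amd1, against 48.8% of all coding genes tested with at least 1. Srm, Oaz1 and Oaz2 had none. Of the upstream frames, 1 in Sms and 1 in Sat1 run past the start codon of the main frame, and the others end before it. Sites for the ESCC seed (AGCACTT or GCACTTA, which share the letters GCACTT, on the transcript strand of the 3′ UTR) occurred in none of the 8, and in 18.4% of coding genes tested. Among genes with a 3′ UTR within 20% of the same length, the share with a site ranged from 4.72% for the length of Srm to 39.2% for that of Azin1. This says only that AGCACTT and GCACTTA are not in the 3′ UTRs of the annotated transcripts read. Sites with the shared letters GCACTT alone were not counted.

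Of 27 further genes of polyamine metabolism on a list of related genes, 20 could be tested and 8 of them passed for the change in translation level, 3 higher and 5 lower (13% of all genes tested passed as higher and 15.2% as lower). Their median log2 change was -0.31, beside 0.01 over all genes. In high polysomes 15 of 20 passed, 5 higher and 10 lower (median -0.35, 29.1% of all genes tested passed as higher and 31.6% as lower). In the hypusine pathway, in which spermidine is used to modify the translation factor EIF5A, 3 of 4 genes were lower in translation level, beside 15.2% of all genes tested, or 24.7% with total counts. Eif5a itself fell by 1.78 on the log2 scale (SE 0.16, adjusted p = 1.4e-10), with high polysome levels of 1400 ± 35.7 CPM in WT and 501 ± 83.1 CPM in KO. Its coding sequence is in the shortest decile, which had a median change of -0.94 and where it stood at percentile 9.74. Its paralog Eif5a2 had 5 to 18 reads in the WT and only 0 to 5 in the KO high polysome libraries. It changed by -2.77 (SE 0.91, adjusted p = 0.0189), a call lost without WT replicate 3 (-2.17, adjusted p = 0.113) or KO replicate 2 (-2.15, adjusted p = 0.085). The Eif5a2 coding sequence is in the same shortest decile, at percentile 0.593. Mat2a, which makes the S-adenosylmethionine that AMD1 uses, moved the other way, by 1.28 (SE 0.17, adjusted p = 3.91e-07). Its level was 162 ± 9.37 CPM in WT and 404 ± 33.4 CPM in KO high polysomes, beside 931 ± 83.3 and 961 ± 162 CPM in monosomes. Of the 7 methionine salvage and methyl donor genes, 1 rose and 2 fell in translation level. Among the 4 transport genes, 1 rose and none fell. For catabolism, 0 of 2 genes tested passed, and likewise 0 of 1 in the arginine and ornithine group and 0 of 1 among paralogs. The MYC factor tested rose. The 7 genes not tested for low counts were Amd2, Oaz3, Sat2, Arg1, Arg2, Agmat and Myc, of which Oaz3 had 0 reads.

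The genes whose log2 CPM followed single members most closely over the 18 libraries were, for Oaz1, Ndufc1 (Pearson r = 0.989) and the antisense gene Gm13580 (0.988), and for Oaz2, Uqcrh (0.986) and Mrpl57 (0.985). For Srm they were Dnajc9 (0.965) and Bzw2 (0.953), for Sat1 Mettl23 (0.95) and Ensa (0.947), and for Amd1 Zfand2b (0.936) and the antisense gene 4930513N10Rik (0.926). Odc1 was followed by Pitx1 (0.902) and Ushbp1 (0.899), and Sms by Pawr (0.864) and Nsmce2 (0.861). None of the 8 genes was among those nearest to another of the 8. These values describe patterns over libraries that share genotypes, fractions and depth.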

How the data were processed

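The deposited values are raw read counts for each gene, obtained by the authors from QuantSeq 3′ FWD libraries. They trimmed adapters and poly(A) with Cutadapt 1.14, aligned reads to mm10 with STAR 2.5.3a, kept reads with a single locus and counted them by strand over GENCODE M14 exons with featureCounts 1.5.3, after removing ribosomal RNA genes. Copies made by PCR were not removed as far as stated. The deposited gene length column was not used. The 92 spike-in entries (at most 0.00215% of reads) were left out. Symbols and transcript features came from GENCODE M21, also on GRCm38 (51274 of 51467 genes matched), and the miRNA sequence from RefSeq.

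Genes with 3 CPM in at least 3 libraries (12851, all 8 members among them) were fitted with limma-voom (limma 3.58.1, edgeR 4.0.16, R 4.3.3) with TMM factors, 1 mean per group and no block. Limma, the filter and the interaction contrast were taken from the study's methods. P-values are two-sided, and adjusted ones are Benjamini-Hochberg over all genes tested. A gene passed at an adjusted p under 0.05. CPM are TMM-scaled. Ratios within a library used a prior count of 2 and an exact two-sided permutation test, adjusted over 15 comparisons. Levels were compared between genes only as these ratios. Shared end sequence was the share of 50-base words in the last 500 bases that occur in transcripts of other annotated genes. The rule for the members reads no measured value, but the choice of this gene group, of the lists and of the tests was made with earlier results of these data known. Besides the members and Dgcr8, genes named with a test result are those on the pathway list that met 1 of 2 rules. They passed with a log2 change over 1 in translation level or in all 3 fractions. Also named are the 2 nearest genes of each member, the listed genes not tested for low counts and the epiblast-like markers. Amd2 and Oaz1-ps are named for shared end words. The nearest genes of Azin1 are not reported here. Fractions of a genotype with the same number in their labels were taken to come from 1 gradient, which the labels do not state. Over all genes, same-gradient libraries deviated from their group means with correlations of 0.0317 to 0.135. Other gradients of the same genotype gave -0.14 to 0.0761. Between genotypes, libraries with the same number gave 1.75e-04 to 0.102 (median 0.0263). Those with other numbers gave -0.0994 to 0.0554 (median -0.0192). A batch shared by number was not tested. The scripts were tested on simulated data. Alternatives were edgeR, DESeq2 1.42.0, other scalings and filters, fits on the libraries compared, a replicate block and leaving out each gradient.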

Additional observations from a re-analysis of the deposited data

Results flagged for a closer look

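The effect of fraction differed between the genotypes, by the interaction term of the limma fit, for 4 of the 8 genes. The change in high polysome to monosome ratio, KO minus WT on the log2 scale, was -0.71 for Srm (adjusted p = 0.00598), -0.76 for Oaz2 (0.00583), -1.03 for Azin1 (2.76e-04) and -2.21 for Sat1 (0.00137). The same interaction passed for 28.2% of all genes tested. The Sat1 value rests on 5 to 14 reads per KO high polysome library.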

How the results depend on the processing

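Across 64 values, the 8 genes in 8 comparisons, edgeR, DESeq2, DESeq2 size factors and the replicate block changed no sign and no call. The blocked fit gave the same counts of genes passing, 4 for the change in translation level and 3, 6 and 8 for KO against WT from monosomes to high polysomes. The block was the gradient for ratios of fractions and only a shared number between genotypes, which the labels do not describe as a pairing. Requiring a log2 change over 1 left 2 of 4 genes for translation level, 0 of 4 for the high to low polysome ratio, 0 of 3 in monosomes and 4 of 7 for the WT translation level. Total counts moved the median of all genes by -0.33 for the change in translation level, -0.13 and -0.20 for the other ratio changes and -0.25 for the KO translation level. This added Sms (-0.97) and Oaz1 (-1.11) to the calls and took the share of lower calls from 53.9% to 80.8%.

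Some values that had not passed changed sign. With total counts these were Odc1 in the high to low polysome ratio (-0.19) and WT translation level (0.05), Oaz2 (0.04) and Azin1 (0.08) in monosomes and Sms in the KO translation level (-0.10). With no filter they were Oaz2 (0.01) and Azin1 (0.05) in monosomes and the Odc1 WT translation level (0.07), and 2 genes passed for the high to low polysome ratio. Fitting the libraries compared alone gave 0.03 for Azin1 in monosomes. Leaving out 1 gradient, the genes passing for the high to low polysome ratio ranged from 1 to 4, with Odc1 from -0.52 to 0.52 and Amd1 from -1.53 to 0.53. Monosome changes ranged from -0.44 to 0.05 for Sms, -0.12 to 0.01 for Oaz2, -0.06 to 0.11 for Azin1 and -0.03 to 0.56 for Sat1. Sms in low polysomes ranged from -0.04 to 0.33 and the Odc1 WT translation level from -0.17 to 0.21. Differences in ratios within libraries ranged from -0.01 to 0.68 (Odc1 to Oaz1, low polysomes) and, in high polysomes, from -0.33 to 0.70 (Odc1 to Oaz1), -0.63 to 0.22 (Sat1 to Odc1) and -0.67 to 0.04 (Odc1 to Amd1). The cause was not tested. Reads per KO high polysome library were at most 10 for Amd1 and 14 for Sat1, and Oaz1 had 9 in KO replicate 1.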
